A study of Mus musculus with 4 samples.

Results

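The 48 genes described here were taken out of 12393 genes read on mouse liver arrays. They were selected by symbol, as genes with a single annotated name starting with Psma to Psmg. All but 2, Psmc3ip and Psme3ip1, encode subunits, activators, inhibitors or assembly factors of the proteasome. Each gene was read from its probe set with the highest mean over the 4 arrays. The arrays hold total RNA from livers of wild-type C57/BL6 mice aged 1 month, 2 control mice and 2 mice starved for 24 h, 1 array per mouse. The labels also call the starved mice injected and the control mice not injected, without naming an injection, so any such treatment cannot be told apart from starvation. All 4 mice share genotype, background and age, and no transgene, cell line or pooling is named. Values are log2 signals. Each change given is a difference in log2 signal, starved less control, so that a negative change means a lower signal after starvation.

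The proteasome is the large protease that degrades ubiquitin-tagged proteins. Its barrel-shaped core holds outer rings of alpha subunits, which form the gate, around inner rings of beta subunits, of which Psmb5, Psmb6 and Psmb7 carry the catalytic sites. A cap made of a base and a lid recognises, unfolds and feeds in the substrate. In immune cells, and in other cells under interferon, Psmb8, Psmb9 and Psmb10 replace the constitutive catalytic subunits to form the immunoproteasome, which cuts peptides for MHC class I presentation. The proteasome and autophagy are the main routes by which a fasting liver can break down its own proteins.

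The array medians lay between 6.71 and 6.74, and no library size applies to array data, so the number of arrays limits the precision. Hepatocyte genes were at the top of the range on all 4 arrays, with the albumin gene Alb at 15.21 to 15.30. The second control array stood apart in acute phase genes, whose summed linear signal was 128250 there and 44870 to 49133 on the other arrays. For actin, the 3′ probe set exceeded the 5′ probe set, which grows with RNA degradation, by 2.06 on starved 1, by 1.85 on starved 2 and by 1.76 to 1.79 in control liver. For Gapdh the excess was 0.86 on starved 1, 0.48 on starved 2 and 0.54 to 0.65 in control liver, so starved 2 was the lowest array there. Of all 12393 genes, 8 passed the test, which is limma with Benjamini-Hochberg adjustment over all genes and a threshold of 0.05 on the adjusted p.

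None of the 48 genes passed that test (limma, smallest adjusted p = 0.108, for Psmd9). At an unadjusted p under 0.05, 2 members were higher and 5 were lower in starved liver. Over all genes tested, 0.0646% passed the adjusted test, and at the unadjusted threshold 5.25% were higher and 6.02% were lower. The members' shares were 4.17% higher, below that of all genes, and 10.4% lower, above it, and 3 of the 5 lower genes were the inducible catalytic subunits of the immunoproteasome. The starved arrays both lay above both control arrays in 12 members, or 25%, against 21.4% of all genes, and both lay below in 10 members, or 20.8%, against 20.9%. The median change was 0.03 over the members and 0.00 over all genes, and that of the members was 0.08 without control 1, -0.005 without control 2 and -0.006 without starved 1. Unadjusted counts with 1 array left out are given only in the closing section, and no share of all genes stands beside them there.

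**Figure D1:**
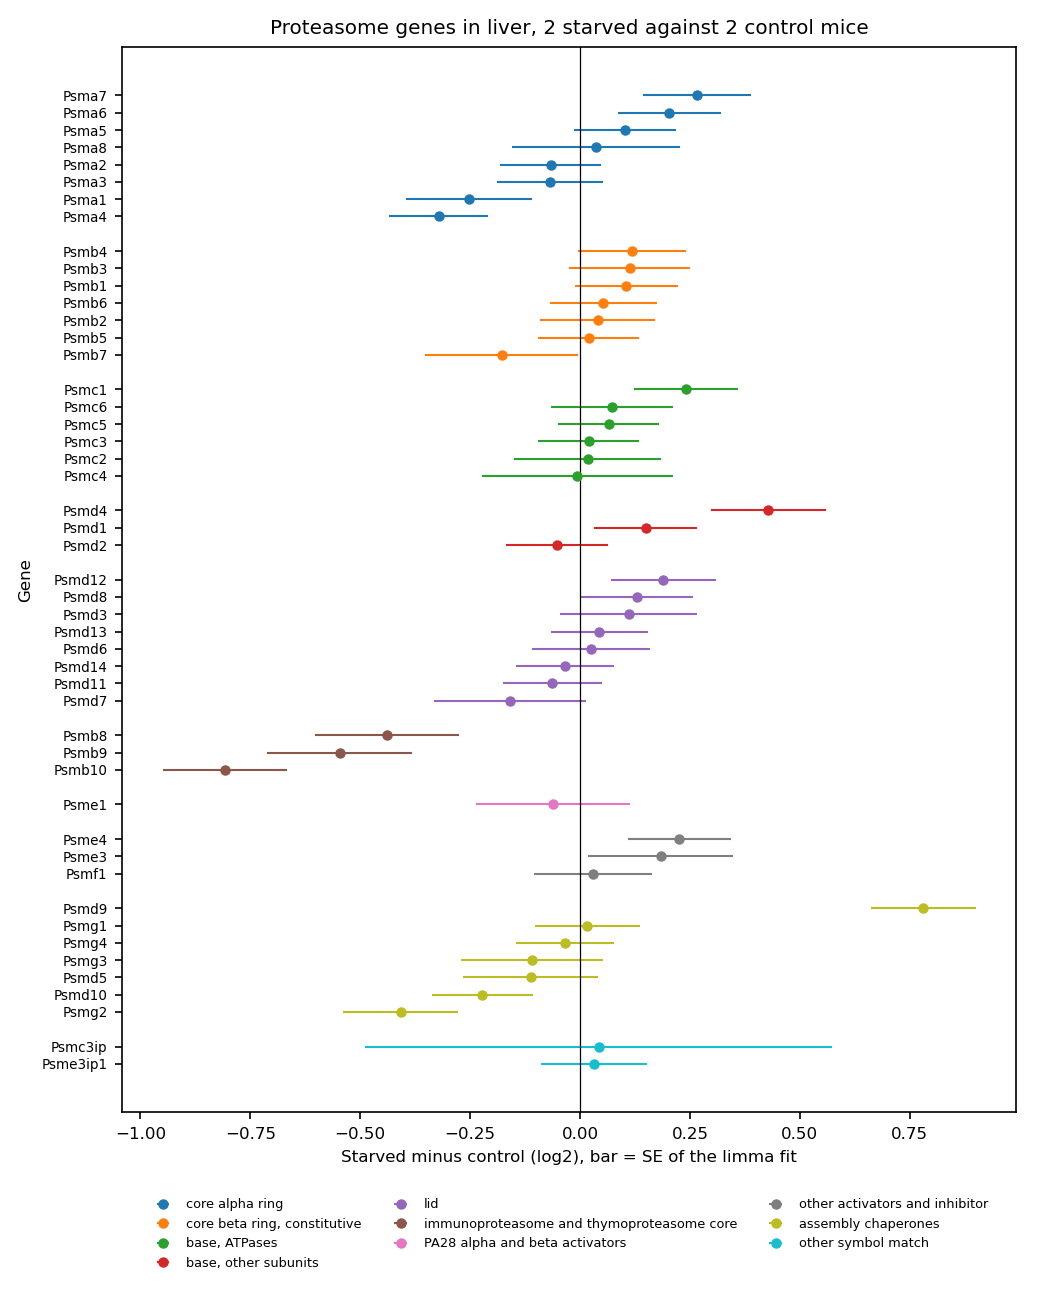
Change between starved and control liver for each of the 48 genes, on the horizontal axis as log2 starved minus control, with the gene on the vertical axis. Points are changes from 2 arrays a group, bars are standard errors of the limma fit, and colours are structural classes. Psmb8, Psmb9 and Psmb10 lie at -0.44, -0.55 and -0.81, and Psmd9 lies at 0.78. Of the 32 core, base and lid genes outside the immunoproteasome, which include the testis gene Psma8, 26 lie within 0.2 of 0.

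The inducible catalytic subunits Psmb8, Psmb9 and Psmb10 were each lower in both starved livers than in both control livers. The stretches upstream of these genes are shown because their signals were low together, and that of Psmd9 because it had the largest change in the other direction. They are RefSeq sequence of GRCm38.p6, 150 bases ending just before the annotated start, 5′ to 3′ on the strand of the gene. Capitals mark any match, on either strand, to the motifs TGACNNNGC, CCAAT, TTCNNNGAA, GAAANNGAA and CCGGAAG. None of the marked matches overlap.
Psmb8, chr17:34198045-34198194, plus strand: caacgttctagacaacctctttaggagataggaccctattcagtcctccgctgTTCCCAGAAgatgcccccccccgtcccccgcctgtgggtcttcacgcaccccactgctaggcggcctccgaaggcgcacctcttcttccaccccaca
Psmb9, chr17:34187331-34187480, minus strand: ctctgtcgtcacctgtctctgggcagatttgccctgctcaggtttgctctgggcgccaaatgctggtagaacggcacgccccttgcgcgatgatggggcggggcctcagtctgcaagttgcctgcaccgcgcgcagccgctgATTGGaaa
Psmb10, chr8:105938393-105938542, minus strand: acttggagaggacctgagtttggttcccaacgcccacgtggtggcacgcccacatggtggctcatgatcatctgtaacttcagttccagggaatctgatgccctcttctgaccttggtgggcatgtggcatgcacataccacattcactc
Psmd9, chr5:123228040-123228189, plus strand: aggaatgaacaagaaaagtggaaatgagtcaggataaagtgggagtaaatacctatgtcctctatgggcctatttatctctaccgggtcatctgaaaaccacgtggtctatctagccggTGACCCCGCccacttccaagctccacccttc

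Psmb10, whose product takes the place of that of Psmb7, read 9.76 and 9.72 on the control arrays and 8.78 and 9.08 on the starved arrays. That is 1.75-fold lower, a change of -0.81 ± 0.14 (SE; limma, unadjusted p = 0.0015, adjusted p = 0.141). Psmb9, the counterpart of Psmb6, read 9.55 and 9.29 in control and 8.71 and 9.04 in starved liver. Its change was -0.55 ± 0.17, or 1.46-fold lower (limma, unadjusted p = 0.0176, adjusted p = 0.325). Psmb8, the counterpart of Psmb5, read 9.71 and 9.60 in control and 9.02 and 9.41 in starved liver, a change of -0.44 ± 0.16 and 1.36-fold lower (limma, unadjusted p = 0.0380, adjusted p = 0.417). In all 3 genes starved 1 was the lowest array, and the groups did not overlap. Each has 1 probe set on the array, so no second probe set bears on these values.

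Their median change of -0.55 was -0.71 without starved 2 and -0.38 without starved 1. Without starved 1, the change of Psmb8 was -0.24, and the unadjusted p was 0.193 for Psmb8, 0.097 for Psmb9 and 0.0092 for Psmb10 (limma). Without control 1, it was 0.119, 0.0771 and 0.0067 in the same order (limma). Without control 2, Psmb8 had an unadjusted p = 0.0606 (limma). In bulk liver RNA, fewer cells that express a gene and less RNA per cell cannot be told apart.

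The constitutive catalytic subunits were close to their control levels. Psmb5, the chymotrypsin-like subunit, read 11.39 and 11.27 in control and 11.35 and 11.35 in starved liver, a change of 0.02 with a 95% interval of -0.27 to 0.31. Psmb6, the caspase-like subunit, read 11.40 and 11.23 against 11.34 and 11.39, a change of 0.05 with an interval of -0.25 to 0.35. Psmb7, the trypsin-like subunit, read 9.38 and 9.83 against 9.38 and 9.47, a change of -0.18 with an interval of -0.61 to 0.25. In all of these the groups overlapped, and the control arrays of Psmb7 were farther apart than its group means.

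Set against its constitutive counterpart within each array, each inducible subunit had the more negative change. The change of Psmb8 minus that of Psmb5 was -0.46, with the starved arrays at -0.66 and -0.26 relative to the control mean. For Psmb9 minus Psmb6 it was -0.60, with starved arrays at -0.74 and -0.46. For Psmb10 minus Psmb7 it was -0.63, with starved arrays at -0.73 and -0.53 but control arrays at 0.24 and -0.24. In each pair the starved arrays lay below both control arrays, and the two-sided exact permutation p was 0.333, the smallest that 2 against 2 arrays can give.

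**Figure D2:**
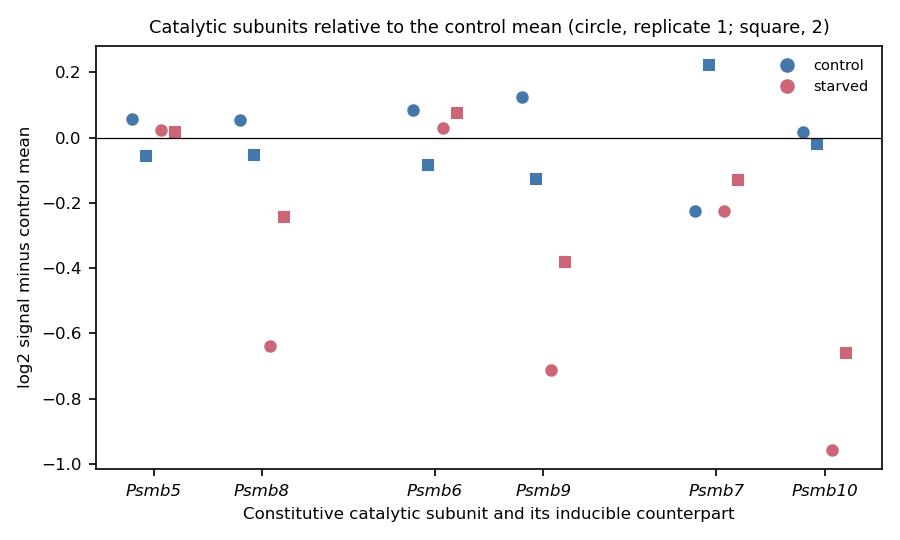
Log2 signal minus the control mean on the vertical axis for each constitutive catalytic subunit and its inducible counterpart on the horizontal axis. Each point is 1 array, blue for control and red for starved. The starved points of Psmb8, Psmb9 and Psmb10 all lie below their control points, while those of Psmb5, Psmb6 and Psmb7 overlap them.

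PA28, a ring that opens the core and is also induced by interferon, was read through Psme1, its alpha subunit. Psme1 read 10.78 and 10.53 in control and 10.40 and 10.79 in starved liver, a change of -0.06 ± 0.17 (SE). The groups overlapped fully, and the change was 0.13 without starved 1 and 0.07 without control 1. The beta subunit has a probe set annotated to more than 1 gene and was not analysed here. The thymus subunit Psmb11 was not analysed here either.

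In the alpha ring, the 7 subunits of the common core had changes in both directions. Psma4 read 12.08 on both control arrays and 11.72 and 11.81 on the starved arrays, a change of -0.32 ± 0.11 (SE; limma, unadjusted p = 0.0312, adjusted p = 0.390). Psma7 went the other way, with 11.03 and 10.87 in control and 11.27 and 11.17 in starved liver, a change of 0.27 ± 0.12 (limma, adjusted p = 0.492), and its second probe set gave 0.26. Psma1 had a change of -0.25, Psma6 of 0.20 and Psma5 of 0.10, each without overlap between the groups. Psma2 and Psma3 both had changes of -0.07. Psma8, which replaces Psma7 in the testis, had a low signal of 5.44 to 5.85 and a change of 0.04. The class median was -0.02.

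The constitutive beta ring, with Psmb1, Psmb2, Psmb3 and Psmb4 beside the catalytic subunits, had a median change of 0.05 and a range of -0.18 to 0.12. None of its 7 members had an unadjusted p under 0.05 (limma). Psmb4, at 12.12 and 11.98 in control and 12.11 and 12.23 in starved liver, had a change of 0.12 ± 0.12 (SE). Psmb1 was the 1 member of this ring whose starved arrays, at 11.70 and 11.78, lay above both control arrays, at 11.69 and 11.58.

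The 6 ATPases of the base, which unfold the substrate and drive it into the core, had changes of -0.01 to 0.24 with a median of 0.04. Psmc1 was highest, reading 10.45 and 10.53 in control and 10.79 and 10.67 in starved liver, a change of 0.24 ± 0.12 (SE; limma, unadjusted p = 0.0901, adjusted p = 0.510). Psmc5 read 10.52 and 10.43 against 10.57 and 10.51, a change of 0.06. Psmc6 had a change of 0.07, Psmc3 and Psmc2 both of 0.02, and Psmc4 of -0.01. In these other 5 ATPases the groups overlapped. Psmc4 had the widest control pair, 11.11 and 11.65.

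Among the other base subunits, the ubiquitin receptor Psmd4 was higher in starved liver. It read 11.21 and 11.31 in control and 11.80 and 11.58 in starved liver, 1.35-fold higher, a change of 0.43 ± 0.13 (SE; limma, unadjusted p = 0.0183, adjusted p = 0.330). Its other probe sets gave 0.29 and 0.18, and with the mean of all 3 the change was 0.30. Without control 1 the unadjusted p was 0.0695, and without starved 1 it was 0.104 (limma). The scaffold subunit Psmd1 read 10.88 and 10.94 in control and 11.121 and 10.998 in starved liver, a change of 0.15 ± 0.12 (SE), and Psmd2, the other scaffold, had a change of -0.05.

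The lid removes ubiquitin chains before degradation. Its 8 measured members had changes of -0.16 to 0.19 with a median of 0.03, and none had an unadjusted p under 0.05 (limma). Psmd12, a structural lid subunit, had the smallest p, with 10.98 and 10.87 in control and 11.18 and 11.06 in starved liver, a change of 0.19 ± 0.12 (SE). Psmd8 read 11.036 and 10.998 against 11.039 and 11.254, a change of 0.13 ± 0.13. Psmd14, the deubiquitinase of the lid, had a change of -0.03. Psmd3 and Psmd13 had changes of 0.11 and 0.04, Psmd6 of 0.03, Psmd11 of -0.06 and Psmd7 of -0.16.

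Across the 32 core, base and lid genes outside the immunoproteasome, the testis gene Psma8 among them, 22 changes were above 0 and 10 were below. That is 68.8% above 0, against 50.9% of all genes, and the median was 0.04. Of the 95% intervals of these 32 genes, 23 lay wholly within 0.5 of 0, and the widest bounds were -0.61 and 0.75. At the unadjusted threshold 1 was higher, Psmd4, and 1 was lower, Psma4. Each is 3.1% of the 32, below the 5.25% of all genes that were higher and the 6.02% that were lower.

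**Figure D3:**
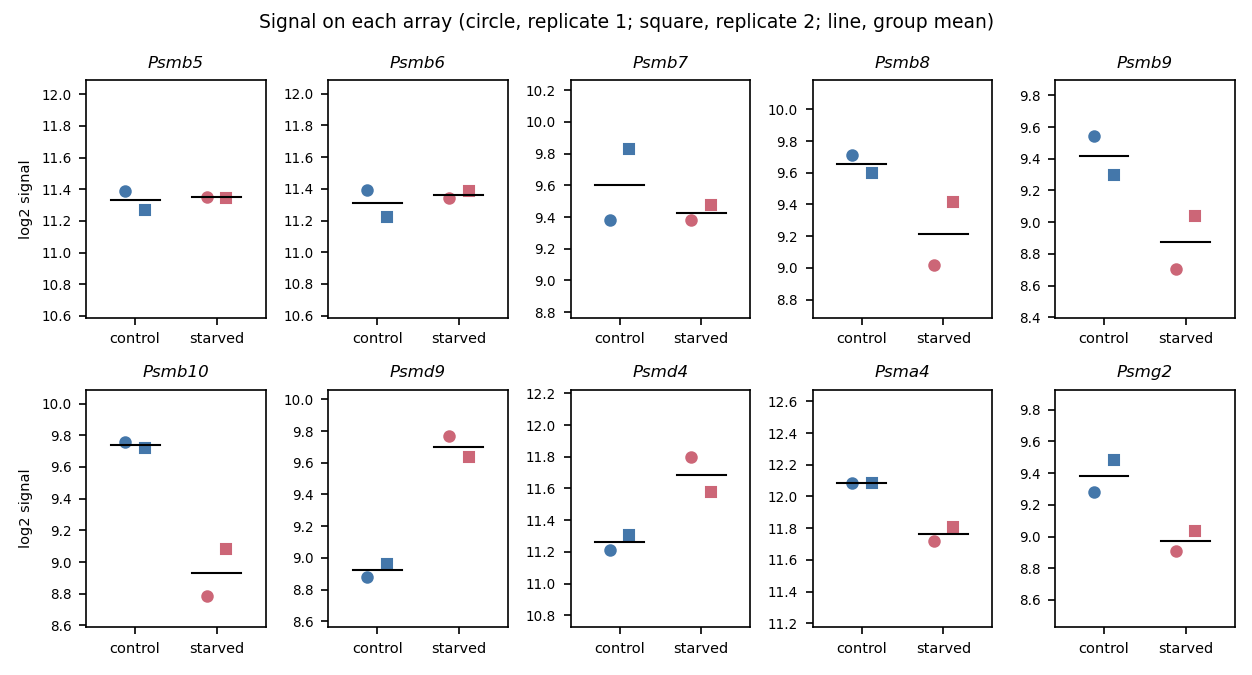
Log2 signal on each array for the 6 catalytic subunits and the 4 other members with an unadjusted p under 0.05, by group on the horizontal axis. Circles are replicate 1, squares replicate 2 and lines group means, and each vertical axis spans the same range of 1.5 log2 units. Groups are separate in every panel but those of Psmb5, Psmb6 and Psmb7.

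Assembly chaperones help build the core and the base and leave the finished particle. Psmd9, a chaperone of base assembly, had the smallest p of all members, with 8.88 and 8.96 in control and 9.77 and 9.64 in starved liver. It was 1.72-fold higher, a change of 0.78 ± 0.12 (SE; limma, unadjusted p = 7.45e-04, adjusted p = 0.108). The adjusted p was 0.0882 to 0.486 over the alternatives run. Its other, dimmer probe set gave 0.27, with overlapping groups, and the mean of both gave 0.53.

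Psmg2, which pairs with Psmg1 to assemble the alpha ring, was lower in both starved livers, reading 9.28 and 9.48 in control and 8.91 and 9.04 in starved liver. Its change was -0.41 ± 0.13 (SE; limma, unadjusted p = 0.0219, adjusted p = 0.351), its second probe set gave -0.28, and the mean of both gave -0.34 (limma, unadjusted p = 0.0650). Without control 2 the unadjusted p was 0.100 and without starved 1 it was 0.107 (limma). Its partner Psmg1 read 10.43 and 10.29 against 10.41 and 10.33, a change of 0.02 ± 0.12.

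The other core chaperones, Psmg3 and Psmg4, showed no separation of that size. Psmg3 read 9.398 and 9.003 in control and 9.07 and 9.11 in starved liver, and Psmg4 read 8.37 and 8.36 against 8.31 and 8.36. Of the other base chaperones, Psmd10 read 8.38 and 8.40 in control and 8.23 and 8.11 in starved liver, a change of -0.22 ± 0.12 (SE). Psmd5 read 8.94 and 8.71 against 8.57 and 8.85, a change of -0.11 ± 0.15. Of the base chaperones Psmd9, Psmd10 and Psmd5, the first had a change above 0 and the others below, and the groups overlapped in Psmd5.

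Other activators and the inhibitor had changes above 0, none with an unadjusted p under 0.05 (limma). Psme4, the PA200 activator, read 11.35 and 11.31 in control and 11.61 and 11.49 in starved liver, a change of 0.23 ± 0.12 (SE). That probe set is of a type that may read related transcripts, and its other probe sets gave 0.04 and 0.07. Psme3, the nuclear PA28 gamma, read 8.18 and 8.17 against 8.57 and 8.15, a change of 0.18 ± 0.17 carried by starved 1, and the change was -0.03 without that array. Psmf1, the inhibitor PI31, read 8.44 and 8.48 against 8.62 and 8.36, a change of 0.03 ± 0.13. The symbol rule also took in 2 genes that are not proteasome subunits. Psmc3ip, a meiotic recombination factor, read 6.45 and 7.16 against 7.64 and 6.04, and Psme3ip1, a partner of Psme3, read 8.88 and 8.73 against 8.87 and 8.80.

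Where a gene had several probe sets, these did not always have the same sign. Of the 21 members with several, 10 had 1 direction in all and 11 had both, namely Psma1, Psma5, Psmb1, Psmb4, Psmc2, Psmc4, Psmc6, Psmd11, Psmd7, Psme3 and Psmf1. None of these 11 had an unadjusted p under 0.05 (limma). In Psmd7, a lid subunit with a change of -0.16, the other probe sets gave 0.33 and 0.18. With all probe sets of a gene averaged, the change was 0.12 for Psmd7 and 0.06 for Psma1. The added probe sets were dim, with means of 6.60 and 4.21 for Psmd7 and 5.04 and 5.49 for Psma1. The chosen ones had means of 9.01 and 10.97, and the lower quartile of the arrays was 5.08 to 5.13.

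Genes outside the symbol rule that serve the same pathway were read in the same fit. Of 9 measured proteasome factors, 1 was higher at an unadjusted p under 0.05 and none was lower (background 5.25% and 6.02%), with a median of -0.08. That gene was Zfand5, which stimulates the proteasome, at 10.60 and 10.42 in control and 11.08 and 11.12 in starved liver, a change of 0.59 ± 0.12 (SE; limma, adjusted p = 0.186). Its probe set is of a type that may read related transcripts. The change of Zfand5 was 0.53 without probe sets of such types and 0.46 with all its probe sets averaged. Ecpas, a proteasome scaffold, had a change of 0.26 ± 0.12. The assembly factor Pomp, which serves both kinds of core, had a change of -0.27 ± 0.13.

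The list around Nfe2l1, the factor that restores proteasome gene expression when the protease is inhibited, held 8 measured genes with a median of 0.11. None of them had an unadjusted p under 0.05 (limma). Ngly1 and Ufd1, which act on this factor or extract it from the endoplasmic reticulum, had changes of 0.25 ± 0.12 and 0.19 ± 0.12 (SE). Of 5 shuttle and ubiquitin receptors none reached that threshold, with Ubqln4 at -0.10 and Sqstm1 at 0.05. Of 20 conjugating enzymes and ligases 1, or 5%, was higher and none was lower (background 5.25% and 6.02%), with a median of 0.10. It was Fbxo21, an F-box gene, at 9.61 and 9.60 in control and 10.22 and 10.16 in starved liver, a change of 0.58 ± 0.11 (limma, adjusted p = 0.166). Ube4b, a chain-extending ligase, had a change of 0.29 ± 0.12.

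Psmb9 and Psmb8 lie in the MHC region of chromosome 17, in the order Psmb9, Tap1, Psmb8 and Tap2, where the Tap genes encode the carrier that moves proteasome peptides into the endoplasmic reticulum. Tap2 read 7.74 and 7.83 in control and 6.998 and 7.090 in starved liver, 1.67-fold lower, a change of -0.74 ± 0.12 (SE; limma, adjusted p = 0.113). Tap1, which lies between the subunit genes, read 8.34 and 8.10 against 8.04 and 8.35, a change of -0.03 ± 0.16 that ran from -0.18 to 0.13 with 1 array left out. Of the 9 measured antigen presentation genes, 8 were below 0, against 49.1% of all genes, and 2 were lower at an unadjusted p under 0.05, against 6.02% of all genes. These were Tap2 and the peptide-loading factor Pdia3, which had a change of -0.54 ± 0.13. The list's median was -0.16.

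Interferon response genes did not separate the groups. Of 12 measured, none had an unadjusted p under 0.05 (limma), and the median was -0.03. Relative to the control mean, the list's mean was -0.11 on control 1, 0.11 on control 2, -0.36 on starved 1 and 0.30 on starved 2. Ifi47, an interferon-induced GTPase, and Gbp3, a guanylate-binding protein, had changes of -0.73 ± 0.49 and 0.37 ± 0.24 (SE). Single arrays set both values, since Ifi47 was at -1.37 when control 1 was left out and at -0.09 when control 2 was. For the starved arrays the same step gave it -0.24 and -1.22. Gbp3 was at 0.74 without starved 1 and at 0.001 without starved 2. The array on which Psmb8, Psmb9 and Psmb10 were lowest, starved 1, was also the lowest for this list and had the largest 3′ excess for actin, and the part of either in the result was not tested.

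Leukocyte markers mark cells known to express the immunoproteasome, and as a list they overlapped between the groups. Of 15 measured of 17 listed, the groups overlapped in 9. The starved arrays lay above in 3 and below in 3, or 20% each, against 21.4% and 20.9% of all genes. At the unadjusted threshold 1 was higher, Cd79b, and 1 was lower, Laptm5, or 6.67% each against 5.25% and 6.02% of all genes. The summed linear signal of the list was 1248 to 1612 in control and 1166 to 1358 in starved liver. Of the 15 markers, 4 had a mean below the lower quartile of the arrays, and none is at 0 on this scale. The 5 MHC class II markers summed to 1090 to 2981 in control and 1303 to 1770 in starved liver. The 9 Kupffer cell markers summed to 8334 to 10568 and 8378 to 9027. Of them, Marco, a scavenger receptor, was higher in starved liver with a change of 0.70 ± 0.19 (SE; limma, unadjusted p = 0.0109, adjusted p = 0.279). The other 8 had changes below 0, none with an unadjusted p under 0.05 (limma), and the groups overlapped in 6. Relative to the control mean, the Kupffer list's mean was -0.18 on control 1, 0.18 on control 2, -0.11 on starved 1 and 0.04 on starved 2. The part of such cells in the Psmb8, Psmb9 and Psmb10 values was not tested further.

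**Figure D4:**
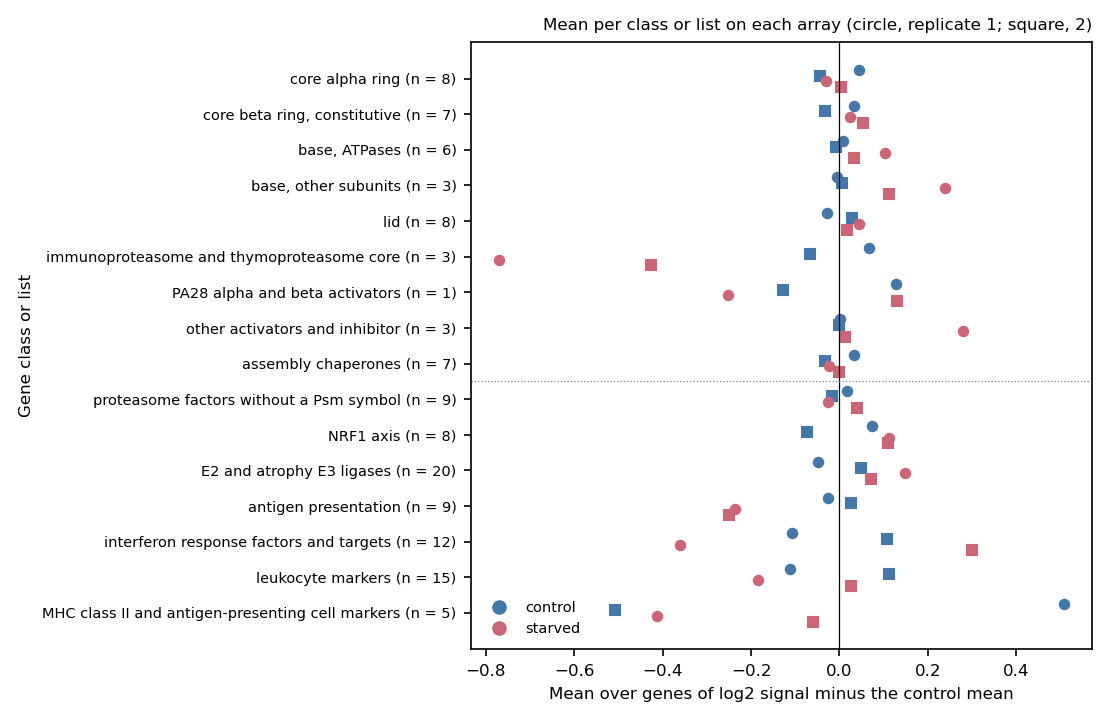
Mean over genes of the log2 signal minus the control mean, on the horizontal axis, for each proteasome class and, below the dotted line, for the neighbouring gene lists on the vertical axis. Each point is 1 array, blue for control and red for starved. The immunoproteasome core lies at -0.77 and -0.43 on the starved arrays, and antigen presentation at -0.24 and -0.25, while the leukocyte and interferon lists overlap between the groups.

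Motifs were counted in the 250 bases before the start in RefSeq promoters, matched for 40 of the 48 members and 9887 of the genes on the array. The letters CCGGAAG, a core of ETS factor sites, occurred in 13 of 40 members, or 32.5%, against 12.9% of array genes and 7.83% of all 27025 genes with a promoter. Psmc3ip, which is not a proteasome subunit, was among the 13. The letters TGACNNNGC, of the antioxidant response element type that Nfe2l1 can bind, occurred in 12.5% of members and 13.5% of array genes. Among the 5 members with them were Psmb5, Psmb6 and Psmd9, the last with the match printed in capitals above. CCAAT occurred in 37.5% of members and 39.9% of array genes.

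For the interferon-related motifs, TTCNNNGAA occurred in 2 of the 40 members, Psmb8 and Psmg1, or 5% against 7.31% of array genes. The Psmb8 match is the one printed in capitals. GAAANNGAA occurred in 3 members, Psmb3, Psmd4 and Psmd9, or 7.5% against 7.56%. The match in Psmd9 lies further upstream than the stretch printed. Such matches are descriptions of letters in these windows, not of bound sites.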

How the data were processed

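Per the submitters' processing notes, the authors made the deposited log2 signals with RMA in affy, which reports 1 value per probe set. The sources used here give no versions and do not say whether the 4 arrays were normalized together. Of 22690 probe sets, 64 controls were left out, 20380 had 1 gene symbol, 691 several and 1555 none. Symbols were updated through Entrez identifiers (20351 matched) in RefSeq genes of GRCm38.p6.

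For 12393 genes, starved arrays were set against control arrays by a two-sided moderated test (limma 3.58.1, R 4.3.3; lmFit, then eBayes). No covariate entered the fit, and Benjamini-Hochberg adjustment covered all genes. The fit was tested on simulated data. The spread behind each limma p-value is that among these mice, moderated towards the spread over all genes (3.71 of 5.71 degrees of freedom). Values on all arrays are given for the catalytic subunits, regulators, chaperones, members with an unadjusted p under 0.05 and the 2 smallest p per class. Members, lists and motifs were chosen with earlier results of these data known. RMA makes arrays alike in distribution, so a shift shared by all transcripts would not show. The alternatives are given in the closing section.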

Additional observations from a re-analysis of the deposited data

How the results depend on the processing

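None of the 48 members passed the adjusted limma test in any of the 12 alternatives. Of the 48, 24 kept their direction in every alternative, among them Psmb8, Psmb9, Psmb10, Psmd9, Psmd4, Psma4 and Psmg2. In these named genes the groups did not overlap, so leaving out 1 array could not turn the sign. Several other alternatives alter only the p-value, and the share of all genes that kept their direction was not counted. Of 14 pathway genes, 13 kept their direction, the exception being Tap1, at -0.184 to 0.126 with 1 array left out. With the replicate number as a block, which cannot alter a change in this balanced design, Psmb8 had an unadjusted p = 0.0520 (limma). Same-numbered arrays did not deviate together (r = 0.0171 across genes), so the numbers were not treated as pairs.

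When every probe set of a gene was averaged, the median was 0.047 for the alpha ring, 0.096 for the lid and 0.022 for the other activators. Signs then turned for Psme3 to -0.020, Psma1 to 0.064, Psmc4 to 0.076, Psmc6 to -0.015 and Psmd7 to 0.116. The added probe sets of Psme3, Psma1 and Psmd7 were dim, with means of 4.21 to 6.60. Dropping the dimmest 40% of genes gave the alpha ring a median of -0.067. Dropping _x_at and _s_at probe sets gave the lid one of 0.069, and Psmc2 turned to -0.009 and Psmd11 to 0.095. Psmc4 also turned, to 0.002 with arrays shifted to 1 median and to 0.010 after further quantile normalization.

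With each array left out in turn, the class medians ran from -0.121 to 0.036 for the alpha ring, from 0.030 to 0.149 for the constitutive beta ring, from 0.017 to 0.121 for the ATPases and from -0.018 to 0.062 for the lid. They ran from -0.713 to -0.380 for the inducible subunits, from -0.026 to 0.289 for the other activators and from -0.212 to 0.003 for the assembly chaperones. The count of higher members ran from 1 to 2 and that of lower members from 1 to 5. The sign turned in 22 of the 48 members. In the core, changes ran from -0.154 to 0.228 for Psma8, from -0.069 to 0.149 for Psmb2, from -0.006 to 0.231 for Psmb3, from -0.037 to 0.077 for Psmb5, from -0.032 to 0.138 for Psmb6 and from -0.402 to 0.045 for Psmb7. In the base, they ran from -0.181 to 0.215 for Psmc2, from -0.035 to 0.075 for Psmc3, from -0.277 to 0.265 for Psmc4, from -0.056 to 0.204 for Psmc6 and from -0.114 to 0.010 for Psmd2. In the lid, they ran from -0.075 to 0.296 for Psmd3, from -0.090 to 0.141 for Psmd6 and from -0.363 to 0.045 for Psmd7. Among the rest, they ran from -0.252 to 0.027 for Psmd5, from -0.252 to 0.129 for Psme1, from -0.026 to 0.393 for Psme3, from -0.043 to 0.106 for Psme3ip1, from -0.100 to 0.159 for Psmf1, from -0.053 to 0.087 for Psmg1, from -0.306 to 0.089 for Psmg3 and from -0.758 to 0.842 for Psmc3ip. The cause was not tested.

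Probe sets of 1 gene disagreed in direction for 11 of the 21 members with several, 9 of 20 when those with a mean below the lower quartile were set aside.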
